A study of Mus musculus with 8 samples.

Results

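The library labelled R1 ESCs was compared with each of 7 other mouse RNA-seq libraries to find the genes that stood above all of them. R1 is a mouse embryonic stem cell line, for which the labels give inner cell mass as source and 129X1 x 129S1 as strain. The others came from C57 brain (3 regions, cerebellum, cortex and hippocampus, besides glia and neuron) and from embryonic fibroblasts (MEF) of ICR and OG2 embryos at day 13.5. Each group held 1 library, so cell type, strain and library cannot be told apart, and no value below has a replicate check or a p-value. No agent was named for any group, and the labels give no animal age for the brain samples, no culture medium and no passage or feeder cells for the R1 cells. A gene was taken when it had at least 10 TPM (an abundance scaled by gene length and library size) in R1 ESCs and when its TPM with 1 added was at least 4 times that of the highest of the 7 others. Genes that met this rule are said to be above every other library. The rule took 161 genes of 29713 listed, 0.542% of all genes and 3.90% of the 4132 genes at 10 TPM or more in R1 ESCs. These levels chose the genes, so they are given as a description.

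Mouse embryonic stem cells in the naive state are held by a network of transcription factors around Pou5f1 (Oct4), Nanog and Sox2, with Esrrb, Klf factors and Zfp42 among its usual companions. Stratified epithelia such as skin, oesophagus and cornea are built differently. Their basal cells make the keratins Krt5 and Krt14, and the cells above them make the proteins of the cornified envelope, while simple epithelia pair Krt8 with Krt18. The genes above every other library included members of both programmes, and most members of either programme were not among them.

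The 250 bases before the RefSeq start of 4 of these genes are shown. The genes stand for the 3 groups described first: Cnfn and Krt14 for stratified epithelium, Krt8 for simple epithelium and Pou5f1 for pluripotency. Sequences are from RefSeq, build GRCm38.p6, written 5′ to 3′ on the strand of the gene: chr7:25369725-25369974 (minus strand), chr11:100206031-100206280 (minus strand), chr15:102004343-102004592 (minus strand) and chr17:35505782-35506031 (plus strand). Windows follow the RefSeq starts, which for Krt14, Krt8 and Pou5f1 differ from the GENCODE starts used below. The Krt14 window lies wholly inside the GENCODE gene, whose start on the minus strand is at 100207548. It is therefore not the sequence before that start. The Krt8 and Pou5f1 windows overlap their GENCODE genes in part. Capitals mark each match, on either strand, to GGGNGGG, a pattern of the kind bound by SP and KLF factors.
Cnfn: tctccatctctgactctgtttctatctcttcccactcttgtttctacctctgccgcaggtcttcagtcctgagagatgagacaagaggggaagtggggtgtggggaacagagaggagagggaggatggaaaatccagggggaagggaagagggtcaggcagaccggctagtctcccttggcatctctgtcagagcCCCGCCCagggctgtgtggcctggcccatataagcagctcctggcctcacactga
Krt14: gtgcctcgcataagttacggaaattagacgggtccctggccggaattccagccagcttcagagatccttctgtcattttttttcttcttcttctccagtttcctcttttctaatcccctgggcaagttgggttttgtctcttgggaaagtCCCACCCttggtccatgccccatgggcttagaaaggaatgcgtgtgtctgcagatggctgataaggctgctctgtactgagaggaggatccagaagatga
Krt8: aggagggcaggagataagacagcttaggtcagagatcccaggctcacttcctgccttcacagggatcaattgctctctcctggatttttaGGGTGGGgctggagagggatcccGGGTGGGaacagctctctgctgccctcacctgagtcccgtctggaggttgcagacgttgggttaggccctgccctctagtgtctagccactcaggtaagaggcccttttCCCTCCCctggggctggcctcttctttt
Pou5f1: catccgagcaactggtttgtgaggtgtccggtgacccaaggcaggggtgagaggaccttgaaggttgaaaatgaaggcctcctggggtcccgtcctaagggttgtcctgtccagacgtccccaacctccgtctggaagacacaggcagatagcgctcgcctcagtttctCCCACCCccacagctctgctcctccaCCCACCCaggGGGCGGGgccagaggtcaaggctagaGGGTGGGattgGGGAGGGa
Pou5f1 had 5 matches, Krt8 had 3, and Cnfn and Krt14 had 1 each. Neither TATAAA, a common TATA box sequence, nor TGANTCA, an AP-1 pattern, was found on either strand of these 4 windows. No GGGNGGG match therefore overlapped either pattern. Other forms of the TATA box, such as the tataag in the Cnfn window, were not searched for. Promoters were given for 85 of the 161 genes, and 61.2% of those held GGGNGGG, beside 64.1% of 3236 promoters of genes at 10 TPM or more and 44.4% of all 27025. TATAAA was in 8.24% of the 85, beside 5.995% and 13.0%, and TGANTCA was in 4.71%, beside 4.20% and 6.87%. All 3 shares lay near those of the other genes detected in the same library.

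The library labelled R1 ESCs was the shallowest, with 2147004 expected counts, against 3686772 to 5864673 in the others. It also had the fewest genes at 10 TPM or more, 4132, against 7369 to 10664. Genes of cytosolic ribosomal proteins took 49.9% of its TPM, against 4.61% to 20.9% in the others. The median log2 ratio of R1 ESCs over the highest other library, on TPM + 1, was −1.28 over all genes and −1.44 over those at 10 TPM or more. The same rule took 179 genes (0.602%) in cerebellum, 175 (0.589%) in glia, 56 (0.188%) in neuron, 29 (0.0976%) in cortex, 12 (0.0404%) each in hippocampus and ICR MEF, and 3 (0.0101%) in OG2 MEF. So the number for R1 ESCs was of the size found in cerebellum and glia, but it came from fewer genes that could pass the floor. Those at 10 TPM or more were 4132 in R1 ESCs, against 10567 in cerebellum and 10013 in glia. Cortex and hippocampus were compared with each other, as were the 2 MEF libraries. Genes at like levels in both members of such a pair could not pass, so the numbers are not fully comparable. Against the 2 MEF libraries alone, 409 genes (1.38%) were above both.

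**Figure D1:**
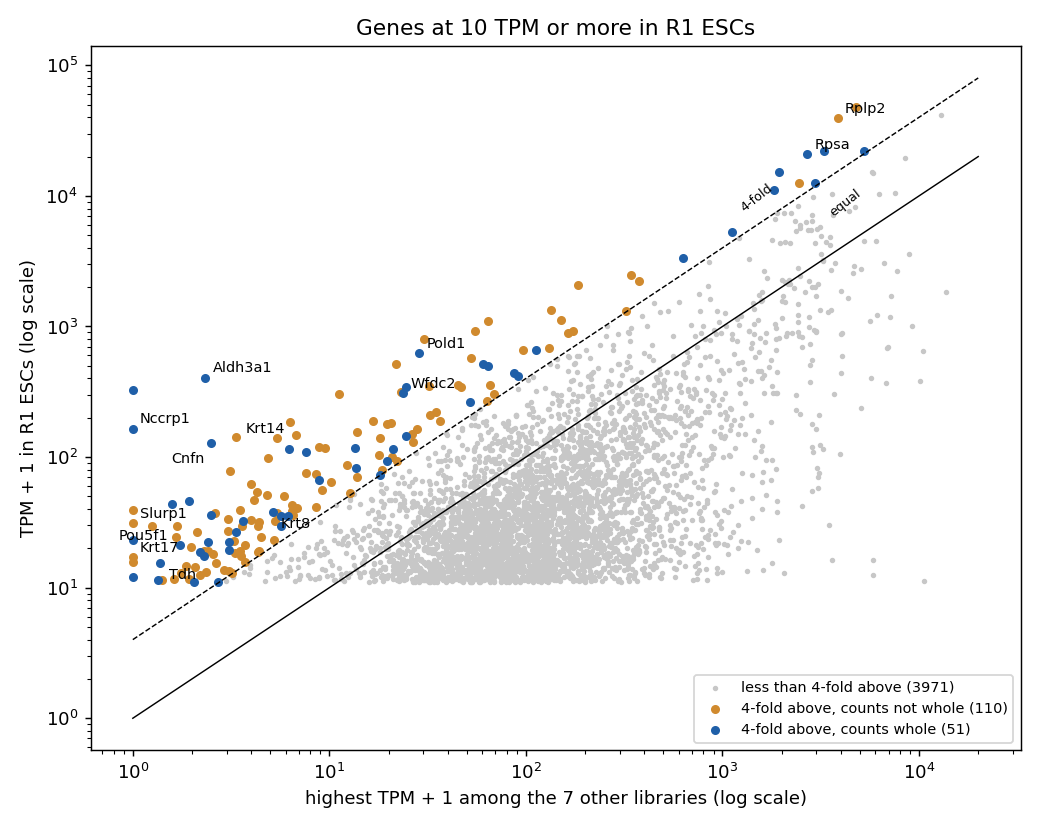
TPM + 1 in the library labelled R1 ESCs (vertical, log scale) against the highest TPM + 1 of the 7 other libraries (horizontal, log scale), for the 4132 genes at 10 TPM or more in R1 ESCs. The 161 coloured points lie on or above the dashed 4-fold line, 51 of them with whole expected counts (blue) and 110 without (orange). Aldh3a1 and Nccrp1 lie farthest above it among the labelled genes.

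Genes known from stratified epithelium had some of the largest differences. Of 4 epithelial lists with 62 genes measured (simple, basal stratified, suprabasal and cornified, and cornea with lens), 8 were above every other library (12.9%, beside 0.542% of all genes), and 20 were at 0 counts. Among the 18 of them at 10 TPM or more in R1 ESCs, the share was 44.4%, beside 3.90%. The lists were drawn up with earlier results of these data known, Aldh3a1, Cnfn, Nccrp1 and Krt8 included, so the counts describe the data and support nothing. Their median log2 ratio over all members was −0.42, beside −1.28 for all genes. Members at 0 TPM in all 8 libraries, such as Dsg3 and Krt4, have a ratio of 0 and draw this median towards 0.

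Aldh3a1 encodes an aldehyde dehydrogenase that is abundant in the corneal epithelium. It lies on chromosome 11 from 61207537 to 61218421 (GENCODE M21, GRCm38, as are all gene positions here). Aldh3a1 had 405 TPM in R1 ESCs, from 1845 counts, against 1.34 TPM in cerebellum, 1.23 in hippocampus, 1.04 in neuron, 0.84 in cortex and 0 in glia, ICR MEF and OG2 MEF. Its TPM was 303-fold that of cerebellum, the highest other (exact 95% interval from the counts, 129 to 933). Such intervals cover counting error alone.

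Nccrp1 encodes an F-box-related protein of squamous epithelium, at chromosome 7 from 28543596 to 28547254. Nccrp1 had 163 TPM in R1 ESCs, from 654 counts, against 0 counts in each of the 7 other libraries. With 3 counts set as the most that a count of 0 allows in each library, this was at least 117-fold higher. Cnfn encodes cornifelin, a component of the cornified envelope, at chromosome 7 from 25367620 to 25369724. Cnfn had 127 TPM in R1 ESCs, from 141 counts, against 1.51 TPM in cerebellum and 0 in the other 6 libraries. Its TPM was 83.8-fold that of cerebellum (22.8 to 699). None of the 31-base stretches of Aldh3a1, Nccrp1 or Cnfn occurs in another annotated gene, and their counts were whole.

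Krt14 and Krt17 encode type I keratins of basal and activated keratinocytes and lie 48669 bases apart on chromosome 11, from 100203162 to 100207548 and from 100256217 to 100261029. Krt14 had 142 TPM in R1 ESCs, against 2.36 in ICR MEF, 1.01 in neuron, 0.40 in OG2 MEF and 0 in cerebellum, cortex, hippocampus and glia. This was 60.0-fold the ICR MEF level (30.2 to 140). Krt17 had 16.1 TPM in R1 ESCs and 0 in all 7 others, at least 11.6-fold higher. The expected counts of both in R1 ESCs were not whole (414.33 and 65.24), and 28.2% of the 31-base stretches of Krt14 occur in other genes, Krt16 first, and 15.8% of those of Krt17, Krt14 first. The division of reads between these keratins is therefore uncertain.

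Slurp1 encodes a secreted Ly6 family protein of skin and cornea, at chromosome 15 from 74724318 to 74728034. Slurp1 had 30.1 TPM in R1 ESCs, from 48.03 counts, and 0 in the 7 others, at least 24.4-fold higher. Its expected count was not whole, and 9.96% of its 31-base stretches occur in another gene, Them6. Its effective length, over which TPM is scaled, was 554 bases in R1 ESCs, against a median of 1542 in the others. Slurp1 was in no list and was named for its ratio. Lgals7 encodes galectin-7, a lectin of stratified epithelia. Lgals7 had 34.7 TPM in R1 ESCs, against 5.19 in neuron, 2.73 in hippocampus, 1.48 and 1.43 in the OG2 and ICR MEF libraries and 0 in cerebellum, cortex and glia. Its TPM was 6.68-fold that of neuron (2.48 to 25.3). Lgals7 was below the 4-fold line when 5 TPM were added in place of 1.

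The other members of these lists were divided. Of 14 basal genes, 7 had 10 TPM or more in R1 ESCs and 5 were at 0 counts, and of 20 suprabasal and cornified genes 5 had 10 TPM or more and 8 were at 0 counts. Krt5, the partner of Krt14 in basal cells, was at 0 counts, as were Trp63, the transcription factor of basal epithelium, Dsg3, Krt4, Ivl, Flg and Calml3. Krt12, the keratin of the corneal epithelium, had 0.20 TPM in R1 ESCs, against 16.8 in cortex, and Krt10 had 0.36 TPM, against 10.2 in cortex. Other members were detected without reaching the line. Sfn, the 14-3-3 protein of epithelia, had 11.3 TPM in R1 ESCs, against 4.62 in cerebellum, and Itgb4, the integrin of hemidesmosomes, had 26.6 TPM, against 13.8 in cerebellum. Krtdap, a keratinocyte differentiation gene, had 30.98 TPM in R1 ESCs, from 26 counts, against 7.98 in cerebellum. Perp and Dsp, of desmosomes, had 19.1 and 10.6 TPM in R1 ESCs, against 55.8 in ICR MEF for Perp and 20.04 in hippocampus for Dsp, while Jup, plakoglobin, had 14.1 TPM, against 183 in cerebellum. Sbsn, suprabasin, had 119 TPM in R1 ESCs, against 163 in neuron. Perp, Dsp and Sbsn were higher in R1 ESCs than in every other library when TMM factors of the TPM were applied, as were Dsp and Sbsn with TMM factors of the counts and on CPM, and Sbsn without ribosomal protein genes.

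Of the simple epithelium list, 2 of 18 genes were above every other library. Krt8, an intermediate filament keratin of simple epithelia that is also made by early embryonic epithelium, had 36.9 TPM in R1 ESCs. Its levels in the others were 4.19 TPM in ICR MEF, 1.13 in OG2 MEF, 1.07 in cortex, 0.78 in hippocampus, 0.51 in cerebellum, 0.22 in glia and 0.20 in neuron. The TPM of Krt8 was 8.81-fold that of ICR MEF (5.48 to 15.0), from 177 whole counts, though 36.0% of its 31-base stretches occur elsewhere, chiefly in its pseudogene. Cldn3, a tight junction claudin, had 25.5 TPM in R1 ESCs, against 2.34 in hippocampus, 1.60 in cortex, 1.15 in cerebellum, 0.57 in OG2 MEF, 0.33 in glia and ICR MEF and 0 in neuron, a 10.9-fold difference from hippocampus (4.10 to 40.9).

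The partner keratins and the adhesion genes of simple epithelium did not reach the line. Krt18 had 6.35 TPM in R1 ESCs, against 12.6 in ICR MEF, and Krt19 had 26.6 TPM, against 31.7 in ICR MEF, but both were higher in R1 ESCs on CPM (counts scaled to their total, without gene length) and with TMM factors of the TPM, and Krt19 also with TMM factors of the counts and without ribosomal protein genes. Cdh1, E-cadherin, had 0.16 TPM, from 2 counts, against 7.83 in cerebellum. Epcam, an adhesion molecule of epithelia and of stem cells, had 2.01 TPM, from 11 counts, against 0.68 in hippocampus. Cdh1 and Epcam are also characteristic surface proteins of mouse embryonic stem cells.

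The pluripotency genes are those that the label calls for. This list too was drawn up with earlier results of these data known, so its counts describe the data and do not test the label. Of 22 naive pluripotency genes, 2 were above every other library (9.09%, beside 0.542% of all genes), and 10 were at 0 counts. Only 4 of the 22 were at 10 TPM or more in R1 ESCs, and the 2 were among them, beside 3.90% of all genes at that level. By any margin, 5 (22.7%) were higher than in every other library, beside 4.67% of all genes and 18.9% of those at 10 TPM or more. The median log2 ratio of the list was −0.10. Members at 0 TPM in all 8 libraries, such as Zfp42 and Utf1, have a ratio of 0 and draw this median towards 0. It therefore does not show that the list was high in R1 ESCs. The summed level of the list was 91.5 TPM in R1 ESCs, against 12.5 to 287 in the others, with glia highest. Sox2 alone, which is also a neural gene, had 225 TPM in glia, so this sum does not rank the libraries by pluripotency. The part that the low depth has in the counts of 0 was not tested.

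Pou5f1, the POU factor at the centre of the network, lies on chromosome 17 from 35506018 to 35510772. Pou5f1 had 20.2 TPM in R1 ESCs, from 71 counts, against 0.73 in cortex, 0.30 in glia and 0 in cerebellum, hippocampus, neuron, ICR MEF and OG2 MEF. Its TPM was 27.7-fold that of cortex (7.38 to 233). Of the 31-base stretches of Pou5f1, 14.2% occur in other genes, Gm19553 first. Tdh, threonine dehydrogenase, an enzyme on which mouse embryonic stem cells depend, had 14.6 TPM in R1 ESCs, from 73 counts. In the others Tdh had 0.38 TPM in neuron, 0.37 in hippocampus, 0.21 in glia and ICR MEF and 0 in cerebellum, cortex and OG2 MEF, and the fold over neuron was 38.3 (10.2 to 323). For Tdh, 17.1% of these stretches occur in other genes, Gm13929 first. Tdh lost its place when 5 TPM were added in place of 1.

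Nanog, the homeodomain factor of the naive state, lay just under the line, with 10.3 TPM in R1 ESCs, against 1.97 in glia and at most 0.67 in the other 6, a log2 ratio of 1.92 on TPM + 1. Under 4 other scalings (CPM, TMM factors of the counts or of the TPM, and no ribosomal protein genes) that ratio was 2.77 to 3.99. Its expected count, 54.81, was not whole. Fgf4 had 1.68 TPM in R1 ESCs, from 14 counts, and 0 in all 7 others, and Sall4 had 2.32 TPM, from 16 counts, against 0.35 in cerebellum and in hippocampus. Both were under the 10 TPM floor.

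Zfp42, Esrrb, Dppa2, Dppa3, Dppa4, Dppa5a, Utf1, Lin28a, Prdm14 and Tcl1 had 0 counts in R1 ESCs, where a gene of 2000 bases would need 0.520 TPM to give 3 counts. Of these, Zfp42, Dppa4, Utf1, Lin28a, Prdm14 and Tcl1 were at 0 TPM in the 7 others too. Sox2 had 4.80 TPM in R1 ESCs, against 225 in glia, where it marks neural cells. Klf4 had 27.2 TPM in R1 ESCs, against 41.5 in ICR MEF, and this turned to higher in R1 ESCs with TMM factors of the counts or of the TPM and without ribosomal protein genes.

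No gene of the other embryonic lists was above every other library. The primed epiblast and gastrulation, 2-cell-like, trophoblast, extraembryonic endoderm and germ cell lists gave 0 of 63 distinct measured genes, of which 44 were at 0 counts and none reached 10 TPM. The fibroblast and matrix list gave 0 of 14. Its summed level was 1161 TPM in R1 ESCs, against 858 to 21158 in the others with ICR MEF highest, and none of its genes was at 0 counts. In these bulk samples, fewer cells of a type and less RNA per cell cannot be told apart, and whether fibroblasts were present in the R1 culture was not tested.

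**Figure D2:**
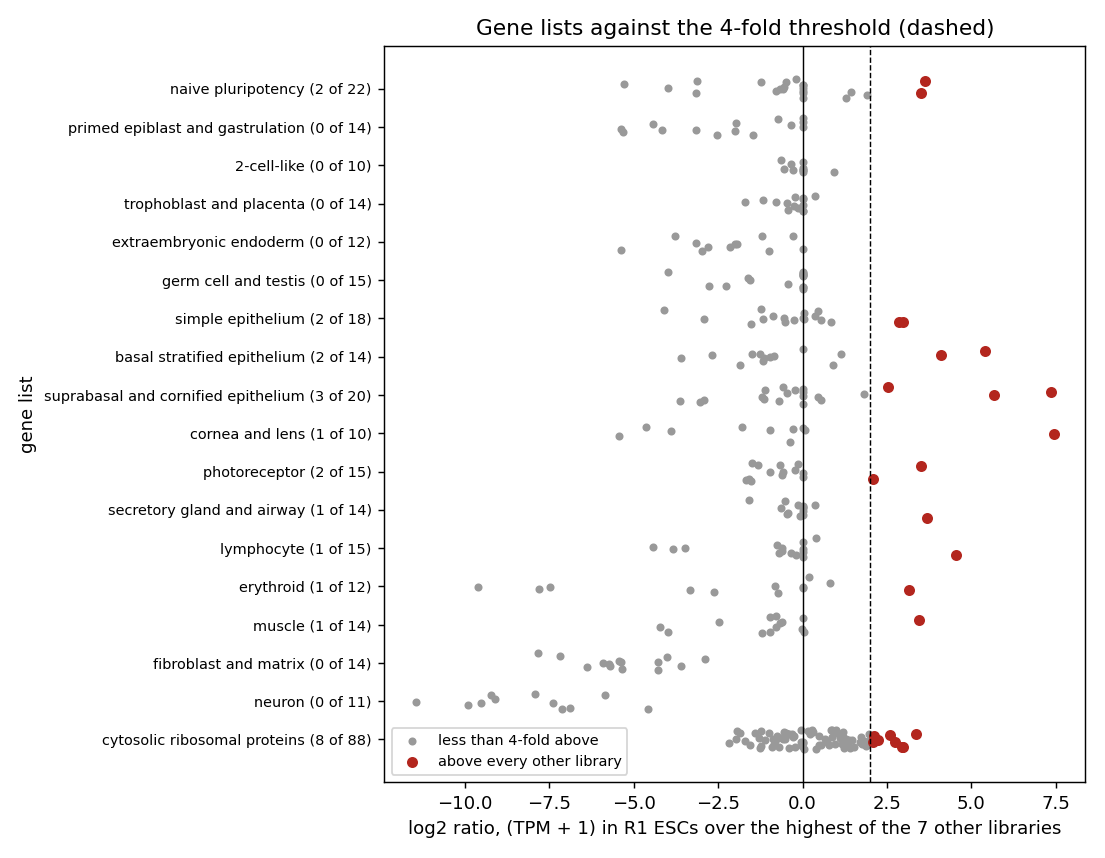
Log2 ratio on TPM + 1 of R1 ESCs over the highest of the 7 other libraries (horizontal) for each measured gene of 18 lists (vertical, with the number above every other library of the number measured). Red points are genes that passed the rule, the dashed line is 4-fold and the solid line equality. Points right of the dashed line are few in each list, and no gene of the neuron and fibroblast lists lies there.

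Genes known from several other tissues were also above every other library. Wfdc2 encodes a whey acidic protein domain protein of glands and airways. Wfdc2 had 306 TPM in R1 ESCs, from 330 whole counts, against 22.7 in neuron, 7.18 in cortex, 6.14 in glia, 1.71 in cerebellum, 1.55 in ICR MEF and 0 in hippocampus and OG2 MEF. This was 13.5-fold the neuron level (9.97 to 18.7). It was 1 of 14 genes of its list, 9 of which were at 0 counts. Hbb-y, the embryonic beta-like globin, had 31.5 TPM in R1 ESCs, from 47 counts, against 2.63 in hippocampus, 0.88 in cortex and 0 in the other 5, an 11.97-fold difference from hippocampus (3.14 to 102). Hba-a1 had 36.8 TPM in R1 ESCs, against 382 in cerebellum, and the adult beta globins Hbb-bs and Hbb-bt were at 0 counts.

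Of 15 photoreceptor genes, 2 passed and 10 were at 0 counts, among them Rcvrn and Crx. Sag, the rod arrestin, had 189 TPM in R1 ESCs, against 15.6 in neuron and 0.54 to 3.82 in the other 6, and Gnat1, the rod transducin alpha subunit, had 91.9 TPM, against 21 in neuron and 0 to 2.98 in the other 6. The counts of both were not whole, and Gnat1 was under the line when all libraries were thinned to the same depth. Gngt2 (a cone transducin gamma subunit, 65.5 TPM) and Guca1a (a guanylate cyclase activator, 18.6 TPM) were above every other library with whole counts of 79 and 39. Rpgrip1, of the photoreceptor cilium, was too, with 31.6 TPM and counts that were not whole. These 3 were in no list and were picked out after their values were seen. Unc13d, which lymphocytes need to release granules, had 514 TPM in R1 ESCs, against 20.8 in neuron and 0.92 to 14.5 in the other 6, while 12 of 15 lymphocyte genes were at 0 counts. Slamf1, a lymphocyte receptor (36.3 TPM), and Ptcra, the pre-T-cell receptor alpha chain (30.7 TPM, picked out after its value was seen), were above every other library too. Alpk2, a kinase of heart and muscle, had 351 TPM, against 31.3 in cerebellum and 2.92 to 22.8 in the other 6, while 7 of 14 muscle genes were at 0 counts. Klhl41, a kelch protein of skeletal muscle, had 23.6 TPM, against 0 to 0.66 in the others. Unc13d, Slamf1, Ptcra, Alpk2 and Klhl41 had counts that were not whole.

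Further genes with large ratios had whole counts. Cst13 encodes a cystatin, a type of cysteine protease inhibitor, and had 42.8 TPM in R1 ESCs, against 0.58 in ICR MEF and 0 in the other 6. Fetub, fetuin-B, a secreted protease inhibitor best known from liver, had 44.8 TPM in R1 ESCs, against 0.92 in ICR MEF, 0.79 in OG2 MEF, 0.31 in glia, 0.28 in neuron and 0 in the 3 brain regions. The fold for Fetub was 48.7 (16.4 to 239). Myl7, the atrial myosin light chain, had 35.0 TPM in R1 ESCs, against 1.49 and 0.85 in the OG2 and ICR MEF libraries and 0 in the other 5. Ndufa4l2, a mitochondrial protein known as a hypoxia target, had 108 TPM, against 0.92 to 6.61 in the others, yet 0 of 12 genes of the hypoxia list passed.

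For Pold1, Chaf1b and Wnk4 the ratio rested partly on gene length. Pold1, the catalytic subunit of DNA polymerase delta, had 621 TPM in R1 ESCs, against 27.6 in cerebellum, 27.2 in ICR MEF, 25.7 in OG2 MEF, 21 in glia, 19.7 in hippocampus, 16.1 in neuron and 4.47 in cortex. Its effective length, over which TPM is scaled, was shorter in R1 ESCs than the median of the others by a log2 difference of −2.28. On CPM, its log2 ratio was 3.36, beside 4.44 on TPM + 1. For Chaf1b, a subunit of the chromatin assembly factor CAF-1, the same pair was 3.26 and 3.81, and for Wnk4, a kinase of renal salt transport, 3.02 and 4.21. Rack1, a ribosome-bound scaffold protein, and Ncl, nucleolin, fell below the line without the length term. Their log2 ratios on CPM were 1.32 for Rack1 and 1.77 for Ncl, both still higher in R1 ESCs. Of the 161 genes, 21 (13.0%) had an effective length under 50% of the median of the others, beside 10.6% of the remaining genes at 10 TPM or more.

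The other named genes with large ratios had counts that were not whole. They were Pgk1-rs7, BC051077, Pbld2, Ctcfl, Klhl41, Slamf1, Wdr89, Cxcr2, Rangrf and Slc28a3. Every 31-base stretch of Pgk1-rs7 also occurs in other genes, Pgk1 first, so its 38.1 TPM in R1 ESCs cannot be told apart from Pgk1. Wdr89 (119 TPM in R1 ESCs, against 2.07 to 7.90) shares sequence with Rplp2. Ctcfl, the paralogue of CTCF that is best known from testis, had 28.6 TPM in R1 ESCs, against 0 to 0.68 in the others, while 14 of 15 germ cell genes were at 0 counts. Cxcr2, a chemokine receptor of neutrophils, had 46.1 TPM in R1 ESCs, against 3.15 in neuron.

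**Figure D3:**
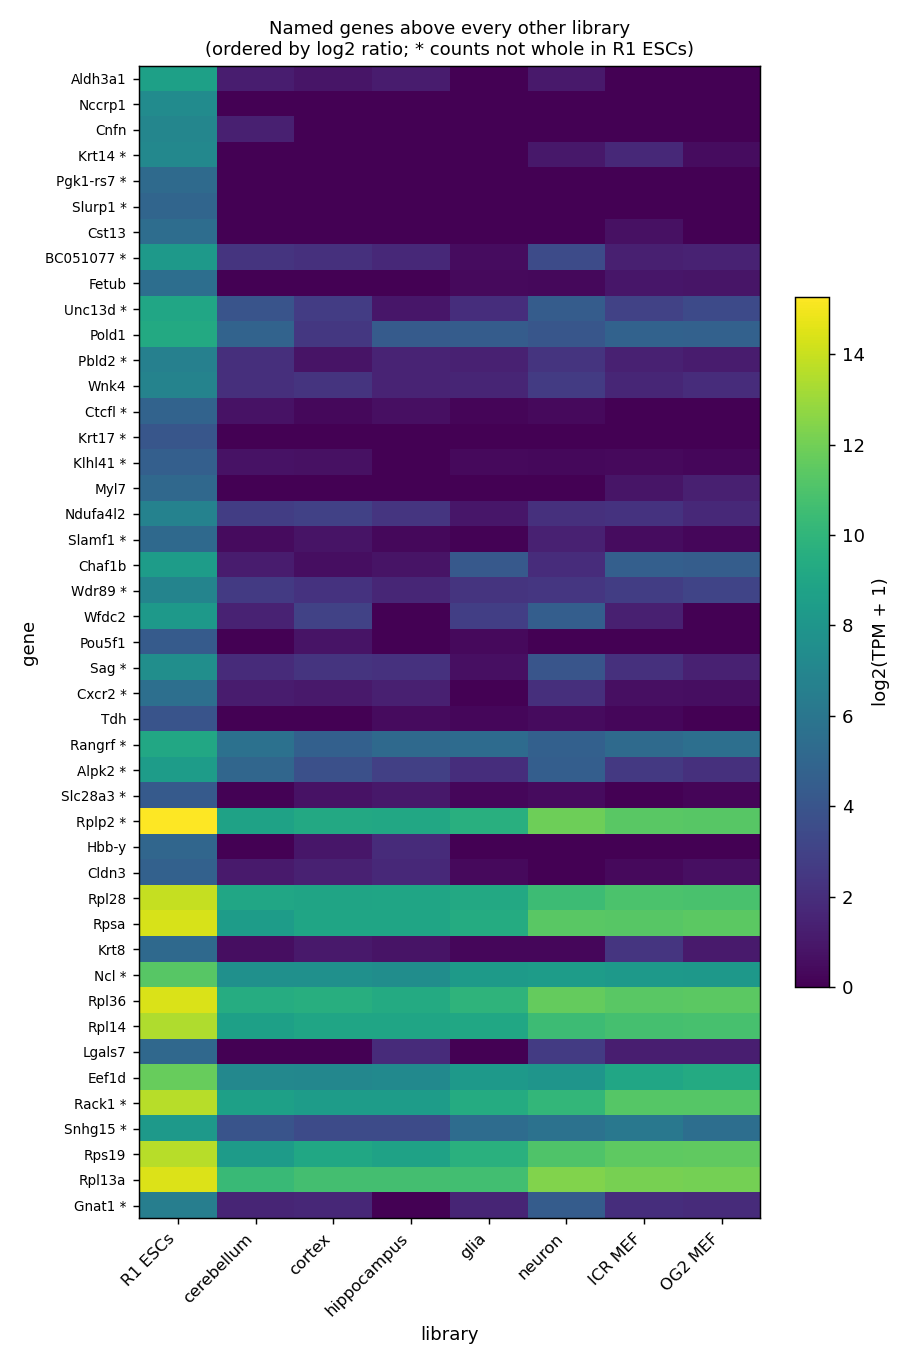
Levels, as log2(TPM + 1), of 45 named genes (rows, ordered by log2 ratio) in the library labelled R1 ESCs and the 7 others (columns). The R1 ESCs column is the brightest in every row, as the rule requires, and the ribosomal protein rows such as Rplp2 are bright in all columns. Asterisks mark genes whose expected counts in R1 ESCs were not whole.

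The highest level was that of Gm37750, a gene model of the class TEC (to be experimentally tested) with an effective length of 6 bases in R1 ESCs, at 48320 TPM in R1 ESCs, against 4752 in OG2 MEF, with counts that were not whole. It was picked out after its value was seen. Genes of the translation machinery came next. Of 88 cytosolic ribosomal protein genes, 8 were above every other library (9.09%, beside 0.542% of all genes), among them Rplp2, Rpl28, Rpsa, Rpl36, Rpl14, Rps19 and Rpl13a. Since 84 of the 88 were at 10 TPM or more in R1 ESCs, the nearer comparison is 3.90%, the share of all genes at that level. By any margin, 50 of the 88 (56.8%) were higher than in every other library, beside 4.67% of all genes and 18.9% of those at 10 TPM or more, and the median log2 ratio of the 88 was 0.45. Rplp2, of the ribosomal stalk, had 39427 TPM in R1 ESCs, against 3855 in neuron, 2663 in ICR MEF, 2549 in OG2 MEF and 441 to 797 in glia and the brain regions. Rpsa, of the small subunit, had 20918 TPM in R1 ESCs, against 2697 in OG2 MEF, 2612 in neuron, 2531 in ICR MEF and 345 to 682 in the other 4. Snhg15, which hosts small nucleolar RNAs, had 301 TPM in R1 ESCs, against 68.2 in ICR MEF, and was 1 of 9 measured genes of its list to pass. The 8 ribosomal protein genes made up 14.9% of the TPM of R1 ESCs, and all 161 genes made up 24.5%.

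Ribosomal protein genes have many processed pseudogenes, so their counts are uncertain where reads match more than 1 copy. Among those above every other library, Rplp2 alone had counts in R1 ESCs that were not whole. Rpl36 had whole counts although 94.1% of its 31-base stretches occur in other genes, so whole counts do not show unshared sequence. Eef1d, a subunit of the elongation factor 1 complex, had 3344 TPM in R1 ESCs, against 631 in OG2 MEF.

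Properties that the rule did not use differed between the 161 genes and the 3971 other genes at 10 TPM or more. Of those annotated, 69.4% were protein coding (109 of 157), beside 95.8%. Predicted models, Rik clones and identifiers without a symbol made up 35.4% (57), beside 4.78%, and 13 genes were antisense, 12 lincRNA and 10 of the class TEC. Counts in R1 ESCs were whole for 31.7% (51), beside 74.5%. A 31-base stretch found in 50 or more genes, as repeats give, was present in 59.9%, beside 34.2%. Neuron, one of the libraries that the rule itself compared with, was the highest other library for 63 of the 161 (39.1%), beside 26.3%.

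These properties went together. Of the 51 genes with whole counts, 49 were protein coding and 11 held such a repeated stretch, and neuron was highest for 12. Among the 110 genes with counts that were not whole, 60 of 106 annotated were protein coding, 83 of 106 (78.3%) held a repeated stretch, 54 were predicted models, and neuron was highest for 51 (46.4%). Aldh3a1, Nccrp1, Cnfn, Cst13, Fetub, Krt8, Cldn3, Lgals7, Wfdc2, Hbb-y, Pou5f1 and Tdh belonged to the genes with whole counts. The genes that the rule took in other libraries had whole counts for 149 of 179 in cerebellum, 26 of 29 in cortex, 11 of 12 in hippocampus, 145 of 175 in glia, 35 of 56 in neuron, 3 of 12 in ICR MEF and 0 of 3 in OG2 MEF. The part of repeated sequence in the R1 ESCs values was not tested. Of the annotated genes, 58.6% overlapped another gene, beside 53.8%, and the strandedness of the libraries is not given in the sources used here, so reads of overlapping and antisense genes cannot be told apart.

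**Figure D4:**
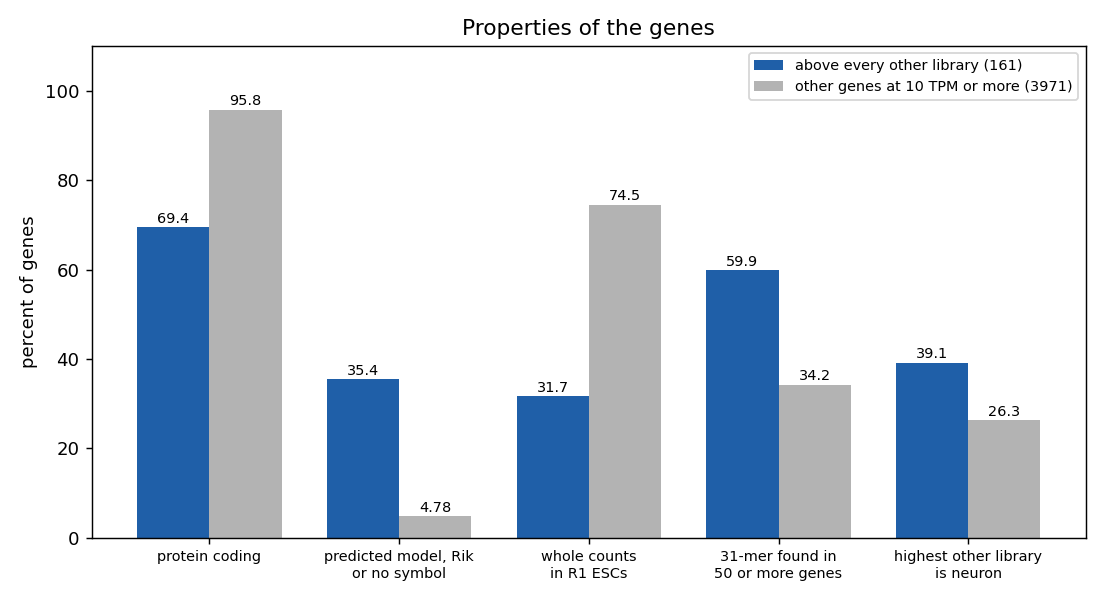
Percent of genes with each of 5 properties (horizontal) among the 161 genes above every other library (blue) and the 3971 other genes at 10 TPM or more in R1 ESCs (grey). Protein coding genes and whole counts were less frequent in blue (69.4% and 31.7%) than in grey (95.8% and 74.5%), and the other 3 properties more frequent.

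Some members rested on very little. Gm29163, a predicted small nuclear RNA, had the largest log2 ratio, 8.36, from 1 count, and 6 of the 161 had under 20 counts in R1 ESCs. At the threshold, Teddm1b and Gm6576 lay just inside with log2 ratios of 2.04 and 2.03. Cnot3, Rpl5 and Gm15879 lay just outside with 1.99, 1.99 and 1.98. In all, 25 of the 161 genes were in any of the 39 lists, and 27 lists had none, among them neuroendocrine (0 of 13), liver (0 of 12), myeloid (0 of 12), p53 targets (0 of 14) and proliferation (0 of 14). Under 5 other scalings and depths, 128 of the 161 genes passed each time. This is no check of the 161, which were chosen from the same values. Both TMM scalings raised R1 ESCs against the others and lost 0 genes. The rescaling without ribosomal protein genes raised R1 ESCs too and lost only the 8 genes it removed. CPM and thinning lost 13 each.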

How the data were processed

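RNA was measured in 8 libraries. Per the labels' protocols, RNA was taken up in Trizol and 1 ug went into the Illumina TruSeq RNA kit. Per the submitters' processing notes, reads were handled with RSEM and Bowtie (versions unstated) on mm10; neither annotation release nor strandedness is given in the sources used here. Expected counts per gene, TPM and effective lengths were deposited by the authors, per the file headers. The 29713 identifiers had a symbol except 511. No reads were mapped here.

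A gene was called at 10 TPM or more in R1 ESCs and 4-fold or more above the highest of the 7 others on TPM with 1 added. Each group held 1 library, so no test was run. Folds on TPM without the added 1 have exact (Clopper-Pearson) 95% intervals, which treat reads as independent and cover counting error only, and a count of 0 was set to 3 counts per library. Counts were called whole when they had no remainder at the 2 decimals deposited. Stretches of 31 bases were counted over GENCODE M21 transcripts, which also gave gene positions by identifier. The rule was also run on simulated counts drawn from the mean profile of the libraries, with some genes raised in R1 ESCs. That simulation held no reads shared between genes and no shift in ribosomal protein genes. It therefore does not check the genes called here. Named genes are, among called genes with at least 20 counts, the 30 with the largest log2 ratio and the 5 with the highest TPM, leaving out predicted models, ribosomal protein and small RNA genes, with every called gene of a list, up to 4 further examples of a list, and the 3 genes nearest to the threshold on each side. List members beyond those 4, chiefly those at 0 counts, and Gngt2, Guca1a, Rpgrip1, Ptcra and Gm37750 were picked after their values were seen. Some genes that met this rule are not reported here. Members and lists were chosen with earlier results of these data known. Alternatives were other added values, floors, folds, scalings and depths, whole counts alone, and leaving out each other library. Software was edgeR 4.0.16 under R 4.3.3, for TMM factors only, and Python 3.11.15 (scipy 1.17.1, pandas 2.3.3, matplotlib 3.10.9, numpy 2.4.6).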

Additional observations from a re-analysis of the deposited data

How the results depend on the processing

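The number of genes above every other library, 161, stayed within 1.5 times that under 0.1 TPM added (169), 5 TPM added (117), floors of 1 and 30 TPM (198 and 112), thinning to the shallowest library (158) and a minimum of 20 counts (155). It was 365 with a 2-fold threshold and 70 with 8-fold, and the genes of the lists among them, 25 in the main count, were 58 and 13. TMM factors of the counts gave 339 genes and 50 of the lists, CPM gave 392 and 54, and TMM factors of the TPM gave 856 and 91. TPM rescaled without ribosomal protein genes gave 311, without the 8 such genes by construction. These scalings moved the median log2 ratio of all genes, −1.28, to −0.89, −0.59, −0.43 and −1.01, in the same order. Whole counts in all libraries left 47 genes and 16 of the lists. Leaving out 1 other library gave 163 to 254 genes and 25 to 35 of the lists, with 254 without the neuron library. CPM lost 13 of the 161, among them Ncl and Rack1, and thinning lost 13, Gnat1 among them. None of the 48 called genes chosen for naming turned lower in R1 ESCs under an alternative that gave it a value. This is no check of them, because they were chosen at 4-fold or more above the highest other library. Other floors, folds, added values, count filters and left-out libraries cannot reverse a direction. Both TMM scalings and the rescaling without ribosomal protein genes raise R1 ESCs against the others. Of the list genes lower in R1 ESCs than in the highest other library, 127 of 514 turned higher with TMM factors of the TPM, 72 on CPM, 52 with TMM factors of the counts and 7 when thinned, and 31 of 478 did without ribosomal protein genes. No paired analysis was possible because each group held 1 library and the labels give no replicate numbers. With 2147004 counts in R1 ESCs, genes listed at 0 there may lie below detection.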
